A study of Mus musculus with 3 samples.

Results

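Oligodendrocyte precursor cells (OPCs) were examined in the medial vestibular nucleus (MVN) of mice 1 day after unilateral labyrinthectomy (UL), the surgical removal of the vestibular end organs of one ear. A cell was taken as a member when at least 200 genes were detected in it and at least 3 of Pdgfra, Cspg4, C1ql1, Lhfpl3, Cacng4 and Pcdh15 had 1 or more unique molecular identifiers (UMIs, the tags that mark single captured RNA molecules), 1 of them Pdgfra or Cspg4. The members were thus chosen by their own UMI counts for these genes. Cells with 2 or more of the mural genes Acta2, Myh11, Kcnj8 and Atp13a5, or with 3 or more of the myelin genes Mog, Mag, Opalin and Ermn, were left out. This gave 1025 members among 13964 cells with at least 200 genes, of 14876 barcodes in all.

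The groups compared were 3, all C57BL/6 mice, each as 1 library. The control library was pooled from 10 mice, and the methods describe surgery that spared the labyrinth, whereas every one of the 3 sample records lists labyrinthectomy as the treatment. The ipsilateral (ULI) and contralateral (ULC) libraries came from the operated and the other side of 11 mice. Surgery was on postnatal day 20, and the nuclei were cut from brainstem slices. With 1 library per group and pooled mice, no difference between groups could be set against replicates, and no p-value is given. Intervals in parentheses are exact 95% intervals that cover counting error only. The platform is given as 10X Genomics in the methods, as Drop-seq in the series description and as BD Rhapsody with the samples. Barcodes in the table are renumbered per library, so those shared between libraries could not be counted.

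OPCs are the dividing, migrating glia that persist in the adult brain and give rise to myelinating oligodendrocytes. They carry the PDGF receptor alpha and the NG2 proteoglycan, receive synapses from neurons, and are held as precursors by Notch and Id signalling. When they commit to differentiation they lose Pdgfra, pass through a short state marked by Enpp6 and Bcas1, and then switch on myelin genes such as Mbp.

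The members had the profile of OPCs. Levels are given as CPM, the UMIs of a gene per 1000000 UMIs summed over the members of a library. Of the genes in the rule, Pdgfra, the receptor for platelet-derived growth factor, stood at 4358 CPM (control), 3591 (ULI) and 2483 (ULC), and at 19.8, 48.1 and 82.8 CPM in all other cells. Pdgfra UMIs were found in 96.7%, 94.5% and 88.4% of members, against 0.968%, 0.941% and 1.56% of cells of the microglia class, which should lack it (median depths of 3079, 2385 and 2598 UMIs). Cspg4, which encodes NG2, stood at 918, 690 and 1229 CPM in the same order. Lhfpl3 stood at 2572, 2434 and 1895, Cacng4, an auxiliary subunit of AMPA receptors, at 2225, 1348 and 1999, and Pcdh15, a protocadherin, at 456, 345 and 248. C1ql1, a secreted C1q-like protein, differed most among the 6, at 132 (control), 40.6 (ULI) and 822 CPM (ULC), and was detected in 27.3%, 9.16% and 74.0% of members. These values chose the members and are a description. In mm10, Pdgfra lies on chromosome 5 at 75152292 to 75198215, Cspg4 on chromosome 9 at 56865033 to 56899870 and C1ql1 on chromosome 11 at 102939264 to 102946688.

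Genes that the rule did not use were also those of the lineage; Olig2, Sox10, Xylt1 and Dcn are named here after their values were seen. The lineage transcription factors Olig1, Olig2 and Sox10 stood at 1603, 1322 and 998 CPM in control, at 1208, 996 and 681 in ULI and at 1411, 1371 and 930 in ULC. Ptprz1, a receptor phosphatase of progenitors, was at 4181, 3409 and 2248 CPM and was detected in 97.5%, 98.2% and 94.2% of members. The proteoglycan Vcan, the sialidase Neu4 and the xylosyltransferase Xylt1 stood at 1695, 914 and 588 CPM in control. Among genes with at least 50 UMIs, the one most enriched outside the rule was Irx6, a homeobox gene, at 32.1, 10.7 and 6.84 CPM in members and at 0.0387, 0 and 0 CPM in other cells. Gsx1, another homeobox factor, was 159 times as high in members as in other cells (mean of the 3 libraries). Dll3, a Notch ligand, was 80.8 times, and Cspg5, a proteoglycan, 79.1 times as high.

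**Figure D1:**
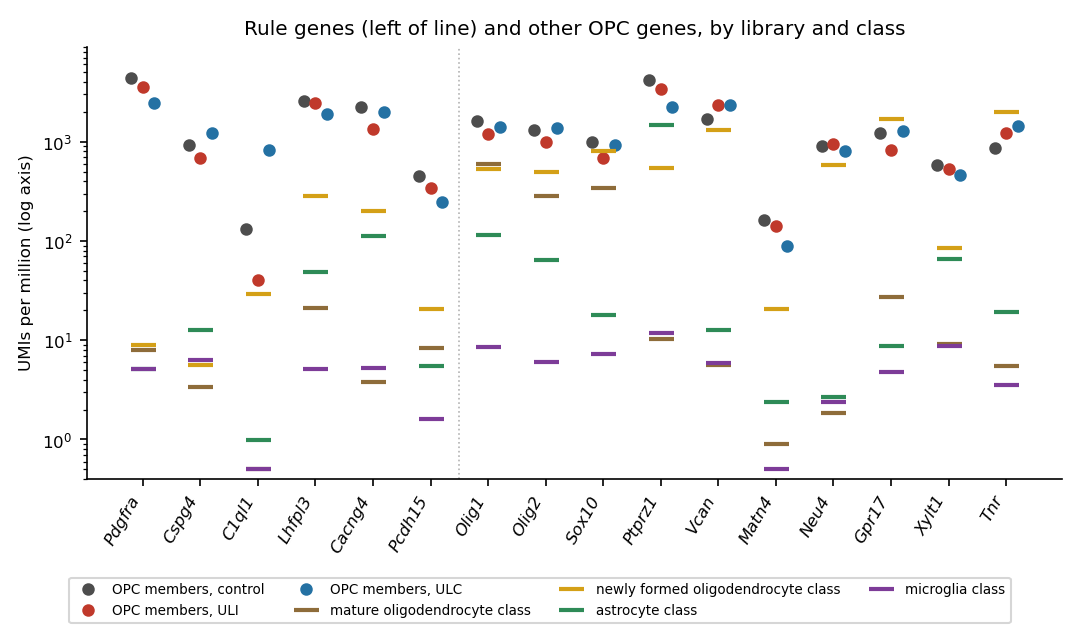
Levels of the 6 rule genes, left of the dotted line, and of 10 OPC genes outside the rule, on a log axis in CPM. Points are the members of each library, and dashes are the mean over the 3 libraries in 4 other cell classes, with values under 0.5 drawn at 0.5. The members lie above the mature oligodendrocyte, astrocyte and microglia classes for every gene shown, while the newly formed oligodendrocyte class lies above at least 1 library's members for Sox10, Gpr17 and Tnr.

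Members were deeper than the average cell. Their median was 4052.5 UMIs and 1864 genes in control, 3339 and 1482 in ULI, and 3755.5 and 1733.5 in ULC, against medians over all cells of 3177, 2100 and 931 UMIs. Members held 1028461, 1870682 and 1316581 UMIs in sum, so that 3 UMIs, the limit that a count of 0 allows, came to 2.92, 1.60 and 2.28 CPM. Their median mitochondrial share was 3.69%, 3.87% and 2.97%. The number of rule genes detected differed between libraries, with all 6 found in 40 control members of 242, 14 ULI members of 491 and 95 ULC members of 292. Just inside the rule, cells with exactly 3 rule genes had Pdgfra at 2433, 2138 and 842 CPM and Olig1 at 941, 832 and 638. Just outside it, cells with 2 rule genes, 1 of them Pdgfra or Cspg4, numbered 11, 63 and 49, with Pdgfra at 1872, 538 and 378 CPM and Olig1 at 35.0, 312 and 319. Those outside cells in control were high in Dcn (1697 CPM), a fibroblast transcript. Cells with 3 or more rule genes but neither Pdgfra nor Cspg4 numbered 7, 27 and 35, with Olig1 at 629, 581 and 753 CPM. Pdgfra is itself counted by the rule, so its values here are a description.

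Few members met the markers of a distant class. Microglia markers were met by 10, 7 and 3 members, neuron markers by 6, 10 and 5, astrocyte markers by 1, 0 and 4, and plexus markers by 0, 1 and 4. No doublet caller was used. The class of newly formed oligodendrocytes shares Gpr17, Neu4 and Bcas1 with OPCs, and its rule was met by 65.3%, 56.8% and 61.3% of members.

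OPCs took a larger share of cells in ULI than in control. Members numbered 242 of 4607 control cells (5.25%, 4.63 to 5.94), 491 of 4813 ULI cells (10.2%, 9.36 to 11.1) and 292 of 4544 ULC cells (6.43%, 5.73 to 7.18). The ULI interval does not overlap the others at full depth. The rule counts detected genes, so the share was also taken at equal depth. Cells with fewer than 1000 UMIs were left out and the others thinned to 1000 UMIs. The shares were then 4.76% of 4010 (4.12 to 5.47), 10.9% of 3437 (9.83 to 11.9) and 9.72% of 2180 cells (8.51 to 11). In this setting the ULI and ULC intervals overlap, and both lie above that of control. Of these cells, 226, 471 and 268 were members before thinning and 191, 373 and 212 after it. Thinning thus lowered the count in each library, and the higher ULC share came with 2180 cells kept of 4544. The share also depends on which other cells were captured. The microglia class held 1963, 1063 and 577 cells and the choroid plexus class 30, 167 and 467. Without both classes the shares were 9.26% (8.17 to 10.4), 13.7% (12.6 to 14.9) and 8.34% (7.45 to 9.31). ULI stayed above control in each of these settings, while ULC lay above control in the first 2 and below it in the last. Whether capture or the tissue differed cannot be told apart.

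Members with many transcripts of cell division were found mainly in the control library. Of the 20 genes of G2 and M phase on the list, 5 or more were detected in 12 of 242 control members (4.96%, 2.59 to 8.5), in 1 of 491 ULI members (0.204%, 0.00516 to 1.13) and in 2 of 292 ULC members (0.685%, 0.0831 to 2.45). The limit of 5 genes was chosen after the values were seen. In control, 3 members expressed 19 of the 20 genes and 2 expressed 18. Exactly 3 of the genes were found in 1 control, 6 ULI and 2 ULC members, and 4 in none. With each member thinned to 1000 UMIs, 3 or more of the genes were found in 11 control members of 226 (4.87%), 2 ULI members of 471 (0.425%) and 1 ULC member of 268 (0.373%), with 16, 20 and 24 shallower members left out. Microglia differed in the same direction. In that class, 5 or more G2/M genes were found in 22 of 1963 control cells (1.12%), 1 of 1063 ULI cells (0.0941%) and 2 of 577 ULC cells (0.347%).

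The same genes were then taken one by one, which describes the same UMIs again and adds no separate support. A gene is called higher or lower when its CPM differ at least 2-fold and the interval of the ratio leaves out 1, among genes with 20 or more UMIs in both libraries together. Across the members, 403 of 10423 genes (3.87%) were higher and 1111 (10.7%) lower in ULI than in control, and 1246 of 10447 (11.9%) were higher and 929 (8.89%) lower in ULC. Both comparisons use the same control library, and these shares are the background for each count of called list genes given below. Of the 17 G2/M genes measured, 16 were lower in ULI (median log2 ratio -4.03) and 15 in ULC (-4.97), where all genes had medians of -0.06 and -0.07. Most of these genes reached 20 UMIs through control, since only 4 were measured between the UL sides. Their direction and medians were thus largely fixed by the count limit and are a description. Top2a, the topoisomerase that untangles replicated DNA, stood at 175 (control), 4.81 (ULI) and 1.52 CPM (ULC). Mki67, the proliferation antigen Ki-67, stood at 119, 8.02 and 3.8 CPM. Cdk1, the kinase of mitotic entry, stood at 75.8, 4.28 and 2.28 CPM, and Cenpe, a kinetochore motor, at 72.9, 1.07 and 0.760. In each of these genes the control library was high and both UL libraries were near the limit of detection. The log2 ratios to control were -5.19 (-6.34 to -4.23) and -6.85 (-9.90 to -4.97) for Top2a, and -3.89 (-4.77 to -3.11) and -4.97 (-6.61 to -3.70) for Mki67. The control level rested on few cells, since 1 member held 26.7% of the Top2a and 24.6% of the Mki67 UMIs. Tubb4b, a tubulin on the list, stood at 170, 183 and 138 CPM and was not called. Outside the OPCs the median log2 ratios of the list were -1.58 and -1.24.

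Promoters of 3 usual markers of division among them are shown because the letters they share recur across the list. The 250 bases before the start of each gene, 5′ to 3′ on the gene's strand (RefSeq, GRCm38.p6), are given in lower case, with TTTGAA, the core of the cell cycle homology region, and CCAAT, the CCAAT box, on either strand in capitals. They lie on the minus strand at chr11:99024190-99024439 (Top2a), chr7:135716380-135716629 (Mki67) and chr10:69352913-69353162 (Cdk1).
Top2a: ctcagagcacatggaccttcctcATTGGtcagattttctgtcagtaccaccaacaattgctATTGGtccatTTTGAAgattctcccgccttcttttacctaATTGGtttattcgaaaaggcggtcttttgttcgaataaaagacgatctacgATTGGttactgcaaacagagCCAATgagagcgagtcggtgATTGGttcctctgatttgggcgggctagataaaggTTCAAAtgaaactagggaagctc
Mki67: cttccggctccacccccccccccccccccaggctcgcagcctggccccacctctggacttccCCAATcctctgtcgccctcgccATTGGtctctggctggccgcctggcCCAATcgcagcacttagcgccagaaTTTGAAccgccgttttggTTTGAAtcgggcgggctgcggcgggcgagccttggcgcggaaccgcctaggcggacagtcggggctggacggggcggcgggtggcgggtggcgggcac
Cdk1: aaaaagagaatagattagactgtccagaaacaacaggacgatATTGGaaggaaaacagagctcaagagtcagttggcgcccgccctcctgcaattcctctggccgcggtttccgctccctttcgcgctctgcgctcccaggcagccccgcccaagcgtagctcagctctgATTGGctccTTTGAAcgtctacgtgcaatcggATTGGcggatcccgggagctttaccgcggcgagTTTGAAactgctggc
Of the 20 G2/M genes, 17 matched a promoter entry of 300 bases. TTTGAA or its complement was found in 12 of them (70.6%) and in 17.9% of all 32851 promoters, CCAAT or its complement in 15 (88.2%) and 37.4%, and both in 12 (70.6%) and 6.95%. A match is a description of letters only.

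Genes of S phase were lower too, with smaller ratios, while cyclins and their inhibitors had no common direction. Of 15 measured S-phase genes, 8 were lower in ULI and 10 in ULC, with medians of -1.02 and -1.68. Without the members with 5 or more G2/M genes and those with 2 or more Enpp6 UMIs, 8 S-phase genes were measured, of which 1 was higher and 0 lower in ULI and 0 higher and 1 lower in ULC. Pcna, the sliding clamp of DNA replication, stood at 100 (control), 57.7 (ULI) and 43.3 CPM (ULC), and was called in ULC only. Rrm1, a subunit of ribonucleotide reductase, stood at 73.9, 35.8 and 46.3 CPM and was called in ULI only. Of 11 cyclins and inhibitors measured in ULI, 2 were higher and 3 lower, and of 12 in ULC, 2 were higher and 2 lower. Ccnd1, the G1 cyclin D1, was detected in 54.5%, 30.8% and 26.7% of members. It stood at 367, 182 and 129 CPM, and its log2 ratios were -1.01 (-1.22 to -0.79) and -1.51 (-1.78 to -1.24). Without the same members the ratios of Ccnd1 were -0.72, no longer called, and -1.04, and its ULI call was also lost under TMM and median-of-ratios scaling, among others. Its ULC call was lost without the members that meet another class. Cdkn1a, which encodes the cyclin kinase inhibitor p21, stood at 46.7, 141 and 287 CPM, and its ratios were 1.60 (1.15 to 2.07) and 2.62 (2.18 to 3.09). The share of members with a Cdkn1a UMI was 9.09%, 19.3% and 37.7%. The ratios of Cdkn1a in other cells were 0.57 and 1.03, so they were higher there too. Cdkn1c, another inhibitor, stood at 55.4, 119 and 87.3 CPM, with ratios of 1.10 and 0.66, of which the second was not called.

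**Figure D2:**
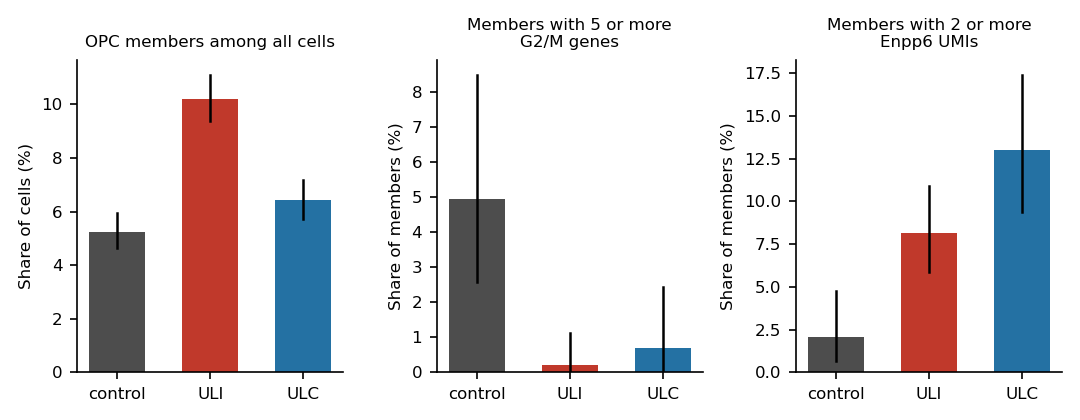
Bars give the share of OPC members among all cells with 200 or more genes (left), of members with 5 or more G2/M genes (middle) and of members with 2 or more Enpp6 UMIs (right), in percent, and lines the exact 95% binomial interval. The share of all members is highest in ULI (10.2%), the share in G2/M highest in control (4.96%), and the Enpp6 share higher in ULI (8.15%) and ULC (13%) than in control (2.07%).

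Members with Enpp6 took a larger share in both UL libraries. Enpp6, a choline phosphodiesterase of newly forming oligodendrocytes, stood at 47.6 (control), 375 (ULI) and 524 CPM (ULC) over all members. The UMIs sat in a small number of cells, since 2 or more Enpp6 UMIs were found in 5 control members (2.07%, 0.674 to 4.76), 40 ULI members (8.15%, 5.88 to 10.9) and 38 ULC members (13%, 9.38 to 17.4). This limit was also chosen after the values were seen. At 1000 UMIs per member, 1 or more Enpp6 UMI was found in 1.77%, 7.64% and 9.33%. In microglia, 2 or more were found in 0.204%, 0 of 1063 and 0.173% of cells, and the 0 allows up to 0.282%. The shares in members were therefore above that of a class that should lack the gene. In all other cells, which include the later oligodendrocyte classes, the shares were 18.0%, 17.4% and 12.4%, at median depths of 3119, 1915 and 864 UMIs. They were thus above those of the members in control and ULI, and were not higher in the UL libraries than in control. These members were deep cells, with median UMIs of 8421, 9195 and 10356. No member was in both states. Enpp6 lies on chromosome 8 at 46986887 to 47096762.

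The Enpp6 members were low in the PDGF receptor and high in myelin transcripts. Pdgfra was at 0 UMIs in control and at 279 and 133 CPM in ULI and ULC, against 4567, 4374 and 3522 CPM in the members outside both states. Cldn11, a tight junction protein of myelin, stood at 270, 1288 and 1825 CPM in the Enpp6 members and at 78.7, 63.1 and 48.4 in the remaining ones. Bcas1, of early myelinating cells, stood at 2589, 5233 and 3703 against 455, 779 and 711, and Myrf, the transcription factor that drives myelin genes, at 483, 553 and 677 against 25.5, 61.1 and 99.0. Olig1 was at 657, 602 and 830 CPM in the Enpp6 members and at 1693, 1355 and 1667 in the rest. These differences follow the choice of cells by Enpp6 and are a description. The newly formed oligodendrocyte class, which is outside the OPC rule, held 40 control, 679 ULI and 640 ULC cells, and the mature class 898, 533 and 385. How far the edge of the rule took cells of the newly formed class into the members was not tested.

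Over all members, the list of committed precursors was higher in both UL libraries. Of 16 measured genes, 5 were higher and 1 lower in ULI (median 0.57), and 9 were higher and 0 lower in ULC (1.55). Fyn, a kinase of early myelination, stood at 681 (control), 1753 (ULI) and 2293 CPM (ULC). Bmp4, a ligand made by committed precursors, stood at 34.0, 99.4 and 98.7 CPM. Sirt2, a deacetylase of oligodendrocytes, stood at 672, 775 and 2611, and Itpr2, a calcium channel of the endoplasmic reticulum, at 243, 310 and 716. Gpr17 and Neu4, which are already on in OPCs, were not called, at 1211, 822 and 1278 CPM and 914, 940 and 811. Outside the OPCs the list had medians of 2.14 and 2.07, above those in the members. Of 12 myelin genes, 3 were higher and 2 lower in ULI and 7 higher and 2 lower in ULC. Cldn11 stood at 92.4, 300 and 595 CPM. Mbp, the basic protein of myelin, differed between the UL sides, at 634, 517 and 2543 CPM. Gjc3, a connexin of oligodendrocytes, stood at 563, 1327 and 1250 CPM. Outside the OPCs the myelin list was lower than in control, with medians of -0.99 and -0.97.

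The remaining members, outside both states, were then compared by themselves. They numbered 225 in control, 450 in ULI and 252 in ULC. Without the Enpp6 and the G2/M members, the ratios of Cldn11 were -0.32 and -0.70, and neither was called. Of 15 measured genes of committed precursors, 2 were higher and 1 lower in ULI (median 0.07), and 4 higher and 0 lower in ULC (0.25). Of 12 myelin genes, 0 were higher and 4 lower in ULI (median -0.66, against 0.23 over all members), and 2 higher and 4 lower in ULC (-0.14, against 1.31). Myrf was still higher, at 25.5, 61.1 and 99.0 CPM (log2 ratios of 1.26 and 1.96). Mbp was lower in ULI (-1.81) and higher in ULC (1.06). Only 3 and 2 G2/M genes kept 20 UMIs, and none was called, which follows from leaving out members by these same genes.

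Genes of a list named brakes on differentiation were lower in part in both UL libraries, though the action of each in these cells was not tested. Dll3 stood at 125 (control), 66.3 (ULI) and 36.5 CPM (ULC), with ratios of -0.92 (-1.29 to -0.55), not called, and -1.78 (-2.29 to -1.29). In the remaining members its ratios were -0.54, not called, and -1.44. Id4 and Id1, inhibitors of differentiation factors, stood at 55.4, 18.7 and 22.0 and at 15.6, 5.35 and 5.32 CPM. Hes1, a Notch target, was at 31.1, 16.0 and 12.2 CPM. The list's higher genes in ULC were Lingo1, a negative regulator of myelination, at 38.9, 21.4 and 153 CPM, and Notch1, at 2.92, 6.41 and 22.8. In all, 0 of 17 genes were higher and 3 lower in ULI (median -0.56), and 2 were higher and 5 lower in ULC (-0.28). The list had medians in other cells of 0.72 and 1.07.

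**Figure D3:**
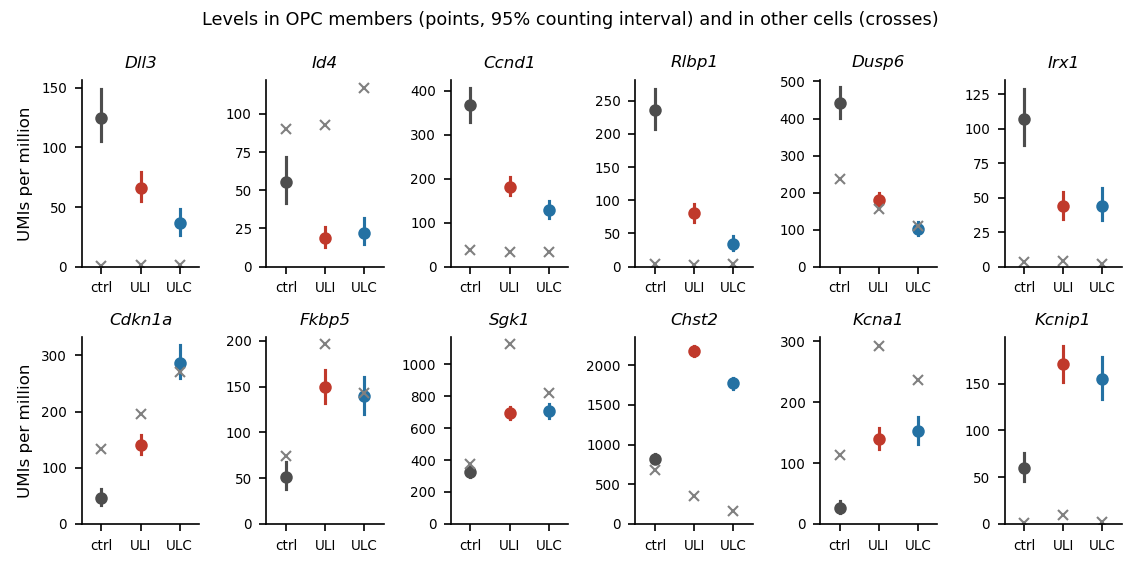
Levels of 12 genes in CPM for control, ULI and ULC. Points are the OPC members with their exact 95% Poisson interval and crosses are all other cells. In members the genes of the upper row are lower in both UL libraries than in control, and those of the lower row higher. Chst2 is higher in members and lower in other cells.

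Other OPC genes outside the rule were mostly near their control level. Of 30 such genes, 0 were higher and 4 lower in ULI (median -0.30), and 1 was higher and 6 lower in ULC (-0.22). Rlbp1, a retinoid-binding protein, was lower on both sides, at 236 (control), 80.2 (ULI) and 34.9 CPM (ULC), with ratios of -1.56 (-1.86 to -1.26) and -2.76 (-3.25 to -2.30). In the remaining members its ratios were -1.40 and -2.38. Rlbp1 was detected in 40.9%, 14.1% and 6.85% of members. Mmp15, a membrane metalloproteinase, stood at 544, 259 and 211 CPM and Ncan, a proteoglycan of the perineuronal matrix, at 222, 108 and 109, and both were called in both comparisons. The endothelin receptor Ednrb stood at 424, 219 and 137 and Cspg5 at 3289, 2629 and 1598, called in ULC only. Kcnip3, a calcium sensor of potassium channels, went opposite ways, at 246, 95.7 and 492 CPM. In the remaining members Mmp15, Ncan and Cspg5 were called in neither comparison. Ednrb was still lower in ULC there, and Kcnip3 kept both calls. Sstr1, a somatostatin receptor, stood at 51.5, 19.2 and 9.11 CPM. Rlbp1 lies on chromosome 7 at 79374870 to 79387048.

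Chst2, Kcnip1, Rasd2 and Ncmap were higher on both sides, and are named for their high ratios in ULI, so that their direction there was fixed by the choice. Chst2, a sulfotransferase that modifies sugar chains of the cell surface, stood at 823 (control), 2180 (ULI) and 1770 CPM (ULC), and was detected in 79.8%, 92.3% and 88.7% of members. Its ratios were 1.41 (1.30 to 1.51) and 1.11 (0.99 to 1.22), and 1.39 and 1.2 in the remaining members. In the other cells Chst2 went the other way, at 678, 351 and 157 CPM, so that in control its level in members was near that in other cells. Kcnip1, a subunit of A-type potassium channels, stood at 59.3, 171 and 155 CPM, with ratios of 1.52 (1.12 to 1.94) and 1.39 (0.97 to 1.82). In the other cells, at 0.620, 9.40 and 2.41 CPM, it was also higher. Rasd2, a small GTPase, stood at 7.78, 22.5 and 19.7 CPM, and Ncmap, a protein of non-compact myelin, at 6.81, 40.1 and 26.6. Chst2 lies on chromosome 9 at 95399292 to 95406722.

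Several genes that respond to glucocorticoid hormone were higher in the UL libraries. Over all members, 7 of 16 were higher and 0 lower in ULI (median 0.52), and 8 higher and 1 lower in ULC (0.99), and in the remaining members 6 higher and 1 lower (0.61), and 7 higher and 0 lower (0.91). Fkbp5, a chaperone of the receptor, stood at 51.5 (control), 149 (ULI) and 140 CPM (ULC), with ratios of 1.53 (1.11 to 1.99) and 1.44 (0.99 to 1.91). Sgk1, a kinase induced by the hormone, stood at 326, 695 and 706 CPM, and Errfi1, a feedback inhibitor of the EGF receptor, at 87.5, 194 and 149, of which ULC was not called. In the remaining members Sgk1 was called on neither side (0.79 and 0.82), while Fkbp5 was called on both (1.69 and 1.62). Hif3a, chosen here after its values were seen, stood at 2.92, 39.0 and 36.5 CPM. Tsc22d3, also chosen afterwards, was lower, at 64.2, 34.7 and 29.6, the latter called. In the other cells Fkbp5 stood at 74.6, 196 and 143 CPM and Sgk1 at 373, 1127 and 820, so both differed there in the same direction. The medians of the list in other cells were 0.14 and 0.28. Fkbp5 lies on chromosome 17 at 28399094 to 28517527 and Hif3a on chromosome 7 at 17031507 to 17062427.

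Ion channels and receptors for transmitters were mostly near the control level. Of 28 measured ion channel genes, 2 were higher and 3 lower in ULI, and of 27 in ULC, 3 were higher and 4 lower. Kcna1, a voltage-gated potassium channel, stood at 26.3 (control), 139 (ULI) and 153 CPM (ULC), with ratios of 2.40 (1.83 to 3.03) and 2.54 (1.96 to 3.18). Its ratios in the remaining members were 1.70 and 1.82, and in other cells 1.37 and 1.06. Kcnd2, an A-type channel, stood at 549, 398 and 204 CPM and was called lower in ULC (-1.43, -1.64 to -1.21). The inward rectifier Kcnj10 stood at 240, 328 and 285 CPM and was not called. Cacna1c, a calcium channel, stood at 42.8, 20.8 and 14.4 CPM and was lower on both sides. Of 18 glutamate receptor genes, 1 was higher and 2 lower in ULI, and of 17 in ULC, 0 were higher and 2 lower. Gria2, the AMPA receptor subunit that limits calcium entry, stood at 1049, 1491 and 1129 CPM and was not called. Grin3a, an NMDA receptor subunit, stood at 446, 401 and 191, lower in ULC (-1.23, -1.45 to -1.0). Cacng7, an AMPA receptor regulator, stood at 41.8, 4.28 and 16.7 CPM and was lower on both sides. In the remaining members Kcnd2 and Grin3a were no longer called, and Cacna1c was called lower in ULC only. Cacng7 stayed lower on both sides there. Of receptors for GABA, glycine and other transmitters, 1 of 22 was higher and 4 lower in ULI, and 0 of 21 higher and 5 lower in ULC. Kcna1 lies on chromosome 6 at 126640397 to 126646384.

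Receptors for growth factors and matrix genes showed no common direction. Of 20 measured receptors, 1 was higher and 3 lower in ULI, and of 18 in ULC, 3 were higher and 2 lower. Fgfr3, a fibroblast growth factor receptor, stood at 66.1, 25.1 and 131 CPM, lower in ULI and not called in ULC. Thrb, a thyroid hormone receptor, stood at 60.3, 38.0 and 18.2 CPM, lower in ULC. The neurotrophin receptor Ntrk3 stood at 311, 211 and 137, lower in ULC. Of 27 proteoglycan and matrix genes, 1 was higher and 3 lower in ULI, and 1 was higher and 5 lower in ULC. Serpine2, a protease inhibitor, stood at 2191, 1343 and 999 CPM, lower in ULC. In the remaining members Ntrk3 and Serpine2 were not called, while Thrb stayed lower in ULC. Fgfr3 was called lower in ULI and higher in ULC there. Of 28 synaptic adhesion genes, 0 were higher and 3 lower, and 1 higher and 0 lower. Of 24 guidance genes, 1 was higher and 5 lower, and 2 higher and 4 lower.

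Of the regional genes, 0 of 13 were higher and 1 lower in ULI, a share below the 10.7% lower over all genes, and 0 of 10 were higher and 4 lower in ULC, where 8.89% of all genes were lower. Irx1 stood at 107 (control), 43.8 (ULI) and 44.1 CPM (ULC), with ratios of -1.29 (-1.72 to -0.86) and -1.28 (-1.76 to -0.81). Irx3 stood at 94.3, 54.5 and 38.0 CPM, called in ULC only, and Irx2 at 118, 137 and 91.1, not called. In the remaining members 1 of 12 was higher and 1, Irx1 (-1.03), lower in ULI, and 0 of 10 were called in ULC, where Irx1 was at -0.82.

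Over all members, called genes of rapid induction and of glial reactivity were all lower in ULI and went both ways in ULC. Over all genes, 3.87% were higher and 10.7% lower in ULI, and 11.9% higher and 8.89% lower in ULC. Of 25 immediate early genes, 0 were higher and 7 lower in ULI, and 3 higher and 3 lower in ULC, the latter near the shares over all genes. Fos stood at 2324, 3123 and 2357 CPM and was not called. Fosb stood at 408, 149 and 1260 CPM, lower in ULI and higher in ULC. Dusp6, a phosphatase induced by ERK signalling, and Egr2, both chosen after their values were seen, stood at 441, 180 and 101 CPM and at 98.2, 29.9 and 29.6. Their ratios were -1.29 (-1.50 to -1.09) and -2.13 (-2.42 to -1.85) for Dusp6 and -1.71 (-2.21 to -1.23) and -1.73 (-2.30 to -1.18) for Egr2. Dusp6 in the other cells was lower by less, at 238, 156 and 110 CPM. Of 14 reactive glia genes, 0 were higher and 6 lower in ULI, and 2 higher and 3 lower in ULC. Sox9, chosen after its values were seen, stood at 80.7, 15.5 and 28.1 CPM and was lower on both sides. Of interferon and antigen genes, 1 of 10 was higher in ULI and 0 of 8 were called in ULC. Of 14 heat shock genes, 0 were higher and 1 lower in ULI and 1 higher and 0 lower in ULC. Of the genes of cholesterol synthesis, 1 of 17 was higher and 1 lower in ULI, and 6 of 20 were higher and 0 lower in ULC. Hmgcs1, an early enzyme of that path, stood at 474, 732 and 1047 CPM.

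**Figure D4:**
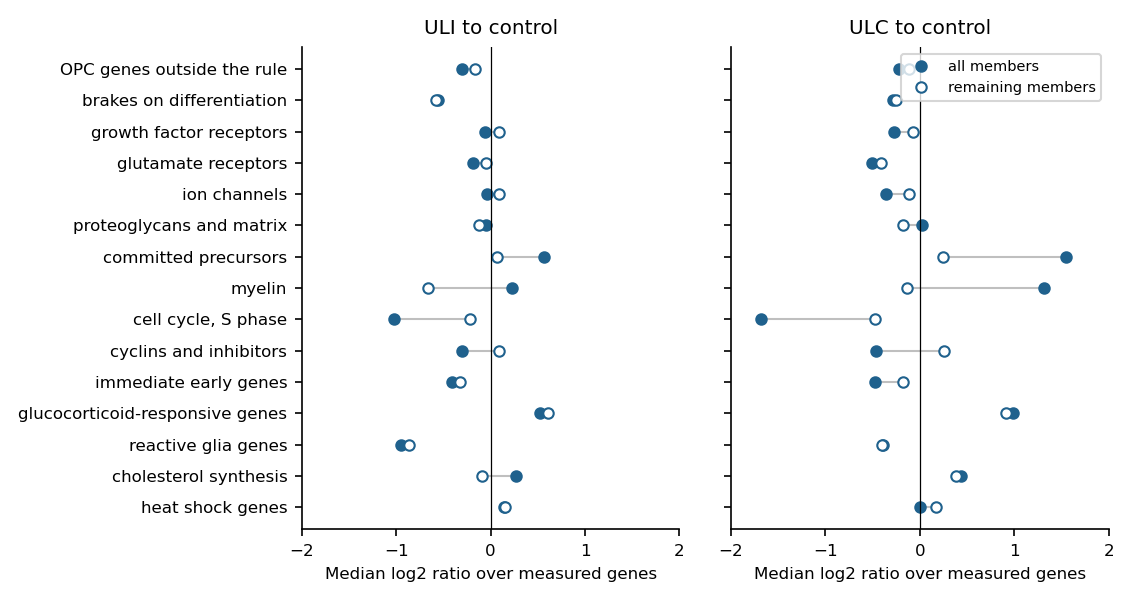
Median log2 ratio to control over the measured genes of 15 lists, ULI at left and ULC at right. Filled circles are all members and open circles the members without 5 or more G2/M genes and without 2 or more Enpp6 UMIs. The medians of committed precursors, myelin and S phase move towards 0 or past it when those cells are left out, and that of the glucocorticoid-responsive genes stays above 0.5 on both sides.

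Transcripts of other cell types in the members differed between libraries, and only in part as they did in the other cells. Outside the OPCs the plexus transcripts summed to 6378 (control), 17803 (ULI) and 63004 CPM (ULC), and the endothelial ones to 1774, 932 and 2418. The neuron transcripts summed there to 373, 494 and 604 CPM, against a fall in the members, and the microglia transcripts to 10890, 6889 and 4416. The summed level of 14 endothelial transcripts was 827 (control), 195 (ULI) and 308 CPM (ULC). Of 10 measured, 9 were lower in ULI and 9 in ULC, not all of them shared, and for Flt1, an endothelial receptor, 1 cell held 66.0% of the control UMIs. Their part in the other results was not tested. The choroid plexus transcripts summed to 1029, 2597 and 5176 CPM, and Ttr, the transport protein of the plexus, stood at 35.0, 798 and 2566 in members and at 2238, 9029 and 42434 outside the OPCs. In ULI 1 member held 68.0% of the Ttr UMIs. The neuron transcripts summed to 1394, 1024 and 842 CPM, the astrocyte transcripts to 3576, 3048 and 2661, the microglia transcripts to 407, 378 and 311, and the mural and fibroblast transcripts to 58.3, 64.1 and 323. Of the Acta2 UMIs in ULC, 99.3% were in 1 member. The ependymal transcripts summed to 92.4, 11.2 and 29.6 CPM and the blood transcripts to 1.94, 3.21 and 3.04. The mitochondrial genes summed to 36152, 37405 and 33302 CPM, with 0 of 8 higher and 1 lower in each comparison with control, and of the 8 nuclear RNAs measured 2 were higher and 0 lower in ULI and 0 higher and 1 lower in ULC.

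Many genes higher in ULC members were higher in all other cells too. Of 1246 genes higher in ULC members, 811 were also at least 2-fold higher in the other cells, and of 929 lower, 140 were. For ULI the numbers were 132 of 403 and 327 of 1111. Sema6b, a guidance ligand, stood at 1.94, 1.07 and 137 CPM in members and at 0.194, 0.713 and 22.3 in other cells. Src, a kinase, stood at 18.5, 8.55 and 199 CPM and at 3.18, 1.88 and 33.3, and Rap1gap, which inactivates a small GTPase, at 19.4, 6.41 and 191 and at 5.42, 5.25 and 52.7. All 3 were thus higher in ULC within and outside the OPCs, with log2 ratios of 6.14, 3.43 and 3.29 in members and 6.84, 3.39 and 3.28 in other cells.

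These differences went with base composition. The median GC content of the genes measured was 48.3% in ULI and 48.8% in ULC, and it was 53.4% for genes lower in ULI and 54.7% for genes higher in ULC. Genes were cut into 10 bins of equal size by GC. From the lowest to the highest bin, the median ratio went from 0.08 to -0.59 in ULI members and from 0.37 to -0.31 in other cells. In ULC it went from -0.19 to 0.38 and from 0.05 to 0.76. With the median of each bin taken off, 543 genes were higher and 788 lower in ULI, and 1187 and 908 in ULC. Among named genes, the called ratios to control all kept their direction when the median of their bin was taken off. Whether composition is the cause of any single ratio was not tested.

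**Figure D5:**
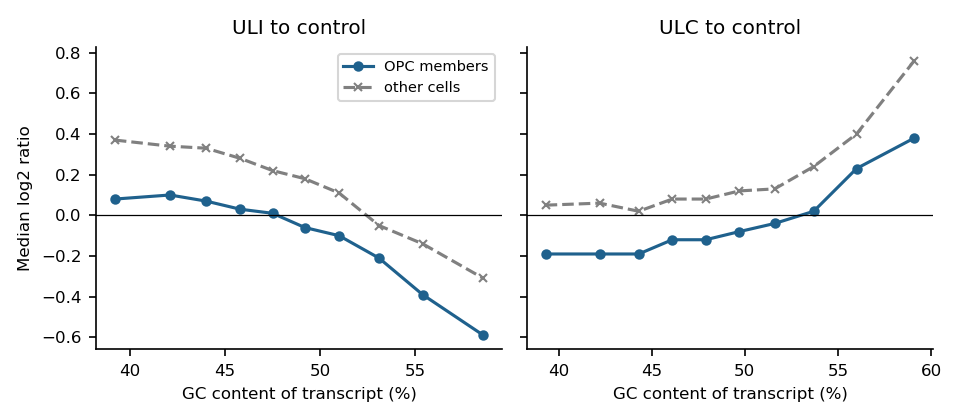
Median log2 ratio to control in each of 10 bins of genes by GC content of the transcript, for ULI at left and ULC at right. Circles are OPC members and crosses other cells. ULI ratios go down with GC and ULC ratios go up, in members and other cells alike.

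The UL sides were set against each other. Of 10807 genes, 532 (4.92%) were higher and 1714 (15.9%) lower in ULI than in ULC. Of 16 genes of committed precursors, 0 were higher and 4 lower, and of 4 measured G2/M genes 1 was higher and 0 lower. Of 20 genes of cholesterol synthesis 0 were higher and 6 lower. The glucocorticoid list had 1 higher and 5 lower of 17. Lower counts in ULI were shared by other cells for 1253 of the 1714 genes.

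The largest ratios over all genes included some for which 1 cell held a large part of the UMIs. F13a1, a clotting factor of macrophages, stood at 0.972, 54.0 and 2.28 CPM, Mrc1, a receptor of macrophages, at 2.92, 57.7 and 4.56, and Scg2, a secretory granule protein, at 1.94, 76.4 and 0.760. In ULI 1 cell held 49.5%, 48.1% and 74.8% of their UMIs.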

How the data were processed

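Cells of the medial vestibular nucleus were measured in 3 libraries: control, ULI and ULC. The deposited table holds UMI counts of 28676 genes per barcode, all whole; per the submitters' processing notes the authors used CASAVA 1.8, UMI-tools, mm10 and Seurat. The aligner, annotation and cell calling were not given in the sources used here. Counting of strand is not stated, so overlapping genes may share counts.

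The members and the gene lists were chosen with earlier results of these data known. UMIs were summed over the members of each library and scaled to 1000000 UMIs (CPM), with exact Poisson intervals. Ratios have exact conditional binomial intervals and shares Clopper-Pearson intervals, at 95%. PCR copies are collapsed by UMI, and all intervals cover counting error only. A count of 0 was set to 3 UMIs and its ratio is a bound. Genes with at least 20 UMIs in both libraries together were measured. With 1 library per group no test was possible. Genes are named by rule: those of the membership rule, the 10 highest and 10 lowest called ratios of OPC-enriched genes with at least 50 UMIs, the 5 highest and 5 lowest over all such genes, up to 6 genes per list with the most UMIs, every called gene of 8 lists, and the 15 most enriched genes. Members that also met another class were kept. Alternatives were other cell filters, marker limits, scaling (TMM of edgeR 4.0.16, median-of-ratios of DESeq2 1.42.0), count limits, thinning to 1000 UMIs (seed 1) ratios less those of other cells, and ratios less the median of their GC bin. Gene positions come from GENCODE vM21 and promoters from RefSeq. Python 3.11.15, numpy 2.4.6, scipy 1.17.1, pandas 2.3.3, matplotlib 3.10.9 and R 4.3.3 were used. Some genes that the rule names are not reported here.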

Additional observations from a re-analysis of the deposited data

Results flagged for a closer look

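For 6 named genes the log2 ratio to control was called in opposite directions on the 2 sides of the UL mice: C1ql1 at -1.70 in ULI and 2.64 in ULC, Fosb at -1.45 and 1.63, Kcnip3 at -1.36 and 1.0, Lims2 at -2.05 and 1.99, Rap1gap at -1.60 and 3.29, and Src at -1.11 and 3.43. Both ratios share the control library, each side is 1 library, and the difference was not tested. Over all genes, 98 were called in opposite directions, of which 97 were lower in ULI and higher in ULC. C1ql1 is 1 of the 6 genes that chose the members, so its ratios are a description. In all other cells, C1ql1 UMIs were found in 0.115% (control), 0.231% (ULI) and 2.12% (ULC).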

How the results depend on the processing

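No paired analysis was possible because each group is 1 library pooled over mice and the labels carry no replicate numbers. The share of members moved beyond its interval in cells with 1000 or more UMIs, each thinned to 1000 (ULC 9.72%). It also moved with 500 or more genes (ULI 14.2%, ULC 11.6%) and with at most 20% mitochondrial UMIs (11.3%, 7.28%). The same held with 4 markers (ULI 8%) and with 2 markers (11.5%, 7.50%). It moved without plexus and microglia (control 9.26%, ULI 13.7%, ULC 8.34%) and without members of another class (1.74%, 4.28%, 2.35%). A setting added after seeing the data, without Enpp6 members, moved it too (ULC 5.59%). The other 18 of 33 shares kept within the interval.

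Counts of called genes are given as higher and lower, first for ULI against control, then for ULC against control, then between the UL sides. At 50 or more UMIs they were 246 and 559, 779 and 498, and 286 and 1091. In members thinned to 1000 UMIs they were 227 and 352, 446 and 304, and 283 and 685. Without a count limit ULI had 1700 lower. Without members of another class ULI had 481 lower, ULC 604 and 448, and the UL sides 785 lower. With ratios less those of other cells, ULI had 1670 lower, ULC 716 and 1705, and the UL sides 608 lower. The other 87 of 108 counts stayed within 1.5 times, TMM and median-of-ratios scaling included.

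Of 1274 ratios of named genes under alternatives, 1087 kept direction and call, 156 lost the call and 31 reversed. Without members of another class, Cldn11 (-0.27) reversed in ULI, and Itpr2 (-0.84), Tmem108 (-0.41), Cldn11 (-0.66), Cnp (-0.22) and the myelin median (-0.22) in ULC. Without G2/M and Enpp6 members, Cldn11 (-0.32) and the G2/M median over 3 genes (0.24) reversed in ULI, where the myelin median also turned from 0.23 to -0.66, and Cldn11 (-0.70) and the myelin median (-0.14) in ULC. With ratios less those of other cells, these reversed in ULI: Mmp15 (0.88), Bcas1 (-0.43), Bmp4 (-1.52), Fyn (-1.91), Gjc3 (-0.20), Kcnip1 (-2.40), Sgk1 (-0.50) and Cst3 (0.26). In ULC they were Mmp15 (0.18), Kcnip3 (-0.07), Nxph1 (0.75), Bmp4 (-1.11), Fyn (-0.94), Itpr2 (-0.81), Lims2 (-1.54), Tmem108 (-1.06), Kcnip1 (-0.58), Sgk1 (-0.02), Lingo1 (-0.85), Kcnk10 (0.11), Fosb (-0.55), Stat3 (-0.36), Sema6b (-0.71), Acan (-1.02), and the medians of committed precursors (-1.0) and plexus transcripts (-0.07). The G2/M median (0.24) was taken after members were left out by these same genes. Itpr2 is a marker of the newly formed class, so leaving out members of another class selects on it. The cause of the other reversals was not tested, and with 1 library per group no alternative measures the spread between mice.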
